A study of Homo sapiens with 12 samples.

Results

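The cadherins and catenins of the adherens junction were described by RNA-seq in 2 human liver cancer cell lines, with and without added miR-628-3p. Huh7 and MHCC97H are both established from hepatocellular carcinoma, the main cancer of the liver. The set is the 9 genes of 60664 in the table whose symbol is CDH1, CDH2, CDH3, CDH6, CDH17, CTNNA1, CTNNB1, CTNND1 or JUP. They were chosen by name, with earlier results of these data known. Each of 4 groups had 3 libraries. The Huh7 miR-628-3p group received a mimic, a synthetic RNA that stands in for the mature microRNA, and its genotype is labelled miR-628-3p overexpression. The Huh7 control group received the mimic labelled mimics-NC, with the genotype labelled WT. The MHCC97H miR-628-3p group carried the construct labelled pGreen-628, also with the genotype miR-628-3p overexpression. The MHCC97H control group carried what is labelled vector, with the genotype WT. All groups share the same medium with fetal bovine serum, and the treatment field reads NA in all 12 samples. The labels give no dose, time after transfection, promoter of the construct or number of clones. Delivery therefore differs between the lines together with the line itself.

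Classical cadherins are transmembrane proteins that bind the same cadherin on the next cell through calcium-dependent outer domains. Their cytoplasmic tails bind p120-catenin near the membrane and either β-catenin or plakoglobin further in, and α-catenin links that complex to actin. β-catenin has a separate life as a coactivator of TCF and LEF factors in Wnt signalling, where a destruction complex sets its protein level. In liver, hepatocytes hold both E-cadherin and N-cadherin, and mutations that stabilise β-catenin are common in hepatocellular carcinoma.

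The microRNA is printed because pairing with its seed, bases 2 to 8 and in capitals, is the usual route to a direct target (RefSeq, GRCh38.p14, chromosome 15, 55372954 to 55372974, minus strand, 21 bases).
hsa-miR-628-3p: uCUAGUAAgaguggcagucga
The longest annotated protein-coding 3′ UTR of each gene in GENCODE release 29 was searched on the transcript strand for TTACTAG, the match to the whole seed, and for TACTAG, the match to bases 2 to 7 contained in it. TTACTAG was in the 3′ UTR of 0 of the 9 genes, against 6.80% of 19146 genes searched. TACTAG was in 3 of the 9, against 17.1% of those genes, without adjustment for 3′ UTR length. The 3′ UTRs of the 9 run from 1069 to 5838 bases, against a median of 1103 over the genes searched. The 3 windows are shown because no other 3′ UTR of the 9 held even the shorter match, and their capitals mark it. They lie at GRCh38 chr18:27952043-27952070 (minus strand, base 94 of a 3′ UTR of 1187) for CDH2, chr16:68698993-68699020 (plus strand, base 604 of 1895) for CDH3 and chr5:138934170-138934197 (plus strand, base 358 of 1210) for CTNNA1. In the CDH3 and CTNNA1 windows the match is followed by an A, as in TACTAGA, which 6.64% of the genes searched hold.
CDH2: actttgtagtcTACTAGcacagtgcttg
CDH3: tcgtgtatatgTACTAGaacttttttat
CTNNA1: tacaacactgaTACTAGattccacaggg
A match describes letters only and does not show that the site is used.

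Levels are FPKM, fragments scaled to exon length and to the fragments counted in the library, so they can be compared between genes. Each library held between 16472932 and 19578875 counted reads, recovered from the FPKM values. Libraries of a group differed by more than counting noise. The chi-square of their read counts, divided by its degrees of freedom, was 34.5 between MHCC97H miR-628-3p libraries 2 and 3 and 8.89 and 12.5 for the other pairs of that group. It was 1.93 to 10.7 for pairs within the other groups. The labels do not say that libraries came from separate cultures, so p-values measure only the spread between these libraries. As a check of the label, the summed FPKM of 9 hepatocyte markers was 12200 to 13600 in Huh7 miR-628-3p and 11200 to 12100 in Huh7 control libraries. It was 63.1 to 69.2 in MHCC97H miR-628-3p and 39.4 to 42.6 in MHCC97H control libraries. The defining marker ALB averaged 39.8 FPKM in MHCC97H miR-628-3p and 13.9 FPKM in MHCC97H control libraries, while it averaged 7268 FPKM in Huh7 miR-628-3p and 6616 FPKM in Huh7 control libraries.

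In MHCC97H, added miR-628-3p went with more CDH1 and CDH17 mRNA, 2.93-fold and 1.51-fold by the group means, while no catenin passed the test. In Huh7 the same microRNA went with 1.28-fold more CDH17 and with JUP at 0.770 of its control level, and CDH1 did not pass. CDH2, CTNNA1, CTNNB1 and CTNND1 passed in neither line. A gene passed where limma on log2(FPKM + 1) gave a Benjamini-Hochberg adjusted p under 0.05 over all genes tested in the line, those with a mean of at least 1 FPKM there. In Huh7, 8 of the 9 genes were tested and 2 passed, where 21.1% of all 12508 genes tested passed, 6.75% higher and 14.4% lower. In MHCC97H, 7 of the 9 were tested and 2 passed, both higher, where 5.37% of all 12670 genes tested passed, 2.32% higher and 3.05% lower. The 2 of 8 in Huh7 is near that background. The median log2 fold change was -0.04 over the 8 in Huh7 and 0.20 over the 7 in MHCC97H, against -0.05 and -0.04 over all genes tested. In bulk libraries, fewer cells with a transcript and less of it per cell cannot be told apart.

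**Figure D1:**
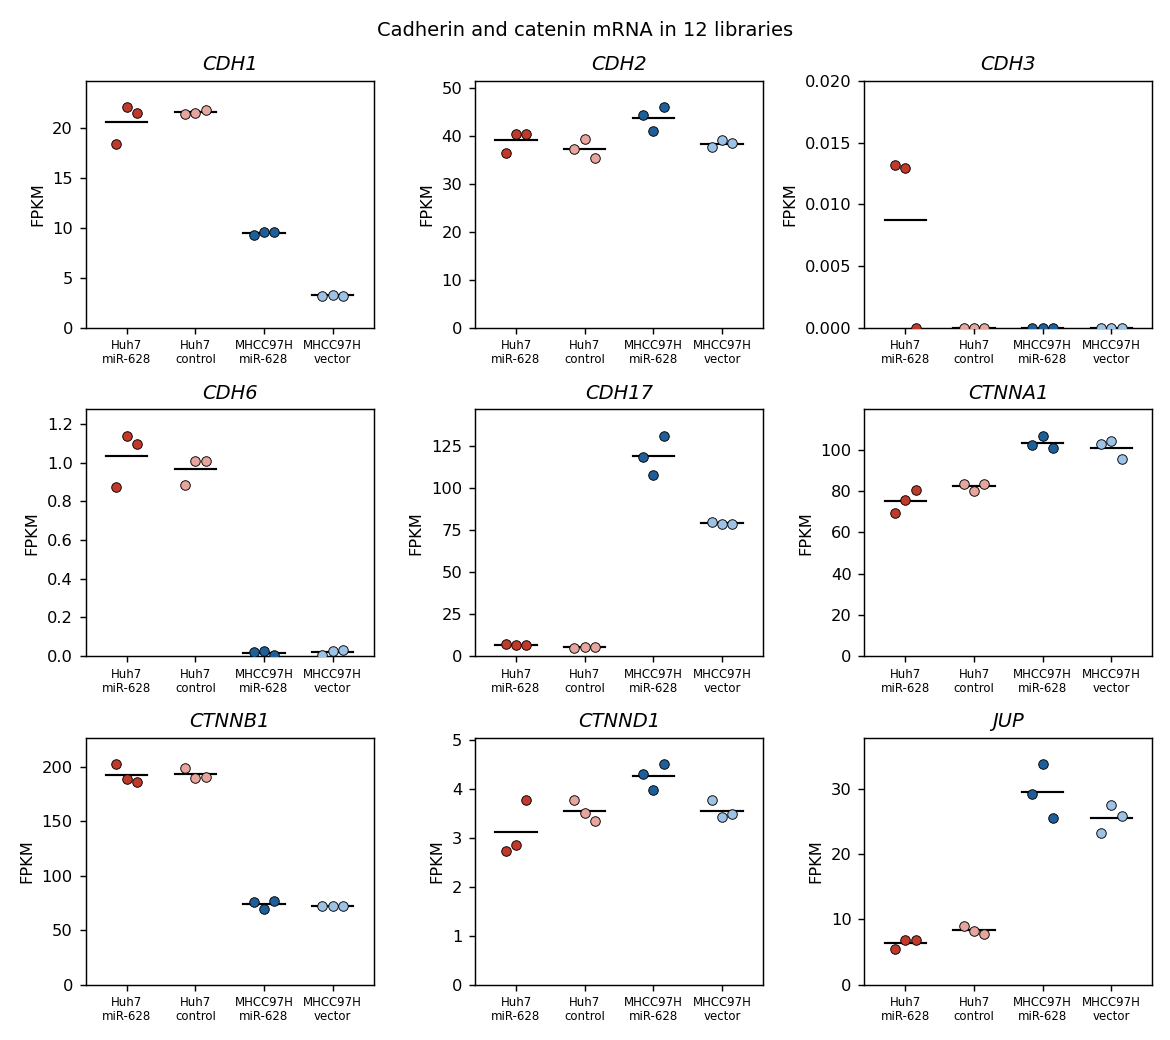
FPKM of each of the 9 genes (vertical axis, from 0, own scale per gene) in the 12 libraries, with 1 point a library and a line at the group mean of 3. CDH1 and CDH17 points of the MHCC97H miR-628-3p group all sit above those of its control, while CTNNB1 differs between the lines and not visibly within them.

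CDH1 encodes E-cadherin, the cadherin of most epithelia (ENSG00000039068; GRCh38 chromosome 16, 68737292 to 68835537, plus strand). It had 9.24, 9.59 and 9.52 FPKM in MHCC97H miR-628-3p libraries, against 3.21, 3.30 and 3.15 FPKM in MHCC97H control libraries. The groups lay far apart and each was tight, on 736 to 887 reads per miR-628-3p library and 264 to 277 reads per control library. The log2 fold change was 1.31 (SE 0.065, limma adjusted p = 0.000185), the 9th highest of the 12670 genes tested in that line. Leaving out any 1 of the 6 libraries kept the log2 fold change between 1.30 and 1.32, with adjusted p between 0.000428 and 0.00442.

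In Huh7, CDH1 had 18.3, 22.0 and 21.4 FPKM in miR-628-3p libraries, against 21.3, 21.5 and 21.8 FPKM in control libraries. The groups overlapped, and the first miR-628-3p library was the lowest of the 6. CDH1 had a log2 fold change there of -0.06 (SE 0.071, limma adjusted p = 0.511), with an interval of 2 SE on each side from -0.21 to 0.08. The log2 fold change in MHCC97H exceeded that in Huh7 by 1.37 (SE 0.091, limma interaction, adjusted p = 9.08e-06). Line and delivery, by mimic or construct, cannot be told apart in such a difference. Even with the microRNA, CDH1 in MHCC97H averaged 9.45 ± 0.183 FPKM, against 21.5 ± 0.233 FPKM in Huh7 control libraries (SD, n = 3 each).

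CDH2 encodes N-cadherin, the classical cadherin of neural and mesenchymal tissue that hepatocytes also hold (ENSG00000170558; chromosome 18, 27932879 to 28177946, minus strand). It had 44.3, 41.1 and 45.9 FPKM in MHCC97H miR-628-3p libraries, against 37.6, 39.1 and 38.5 FPKM in MHCC97H control libraries. The groups did not overlap, yet the log2 fold change of 0.18 (SE 0.063) did not pass, with a limma adjusted p of 0.143. Groups failed to overlap for 4 of the 7 genes tested in MHCC97H, CDH1, CDH2, CDH17 and CTNND1, where 30.0% of all genes tested there did not overlap.

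In Huh7, CDH2 had 36.5, 40.4 and 40.4 FPKM in miR-628-3p libraries, against 37.4, 39.3 and 35.4 FPKM in control libraries. These ranges overlapped, and the log2 fold change was 0.06 (SE 0.062, limma adjusted p = 0.450). CDH2, whose 3′ UTR holds the 6-base match, passed in neither line, and whether the match is used was not tested. A lncRNA without a symbol on the opposite strand shares 2.70% of the exonic bases of CDH2, at 0.261 to 1.24 FPKM.

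CDH3 encodes P-cadherin, found in basal layers of stratified epithelia and in placenta (ENSG00000062038; chromosome 16, 68636189 to 68727468, plus strand). It had 1, 1 and 0 reads in Huh7 miR-628-3p libraries and 0 in each of the other 9 libraries. A count of 0 allows up to 3 reads per library, so no level or difference was detectable at this depth. Its neighbour CDH1 on the same chromosome and strand had between 264 and 2017 reads per library.

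CDH6 encodes K-cadherin, a type II cadherin known from kidney (ENSG00000113361; chromosome 5, 31193686 to 31329146, plus strand). It had 0.874, 1.14 and 1.09 FPKM in Huh7 miR-628-3p libraries, against 0.882, 1.01 and 1.01 FPKM in Huh7 control libraries. The groups overlapped, with a log2 fold change of 0.05 (SE 0.093, limma adjusted p = 0.720), and its mean over the 6 libraries lay just above the limit of 1 FPKM. In MHCC97H it had 3, 4 and 1 reads in miR-628-3p libraries and 1, 4 and 5 reads in control libraries, too few to test.

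CDH17 encodes LI-cadherin, named for liver and intestine, which lacks the long catenin-binding tail of classical cadherins (ENSG00000079112; chromosome 8, 94127162 to 94217303, minus strand). It had 119, 108 and 131 FPKM in MHCC97H miR-628-3p libraries, against 79.8, 78.7 and 78.7 FPKM in MHCC97H control libraries. All miR-628-3p libraries were higher, and they spread more widely, with an SD of 11.7 against 0.601 FPKM in the controls. The log2 fold change was 0.58 (SE 0.078, limma adjusted p = 0.00853), the 106th highest of 12670. Leaving out the first miR-628-3p library or any of the 3 control libraries ended the call, with adjusted p between 0.0529 and 0.0626 and a log2 fold change between 0.58 and 0.59.

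In Huh7, where its level was far lower, CDH17 had 6.93, 6.75 and 6.60 FPKM in miR-628-3p libraries, against 5.10, 5.38 and 5.39 FPKM in control libraries. The groups did not overlap, as for 48.8% of all genes tested in Huh7, and among the 8 tested here the same held for JUP alone. The log2 fold change was 0.30 (SE 0.057, limma adjusted p = 0.0277). The call ended in 4 of the 6 fits that left out 1 library, at a log2 fold change of 0.29 to 0.32. CDH17 was the only one of the 9 genes that passed in both lines, and in both it was higher with the microRNA. The difference of 0.28 between the effects (SE 0.091) did not pass, with a limma adjusted p of 0.0646.

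**Figure D2:**
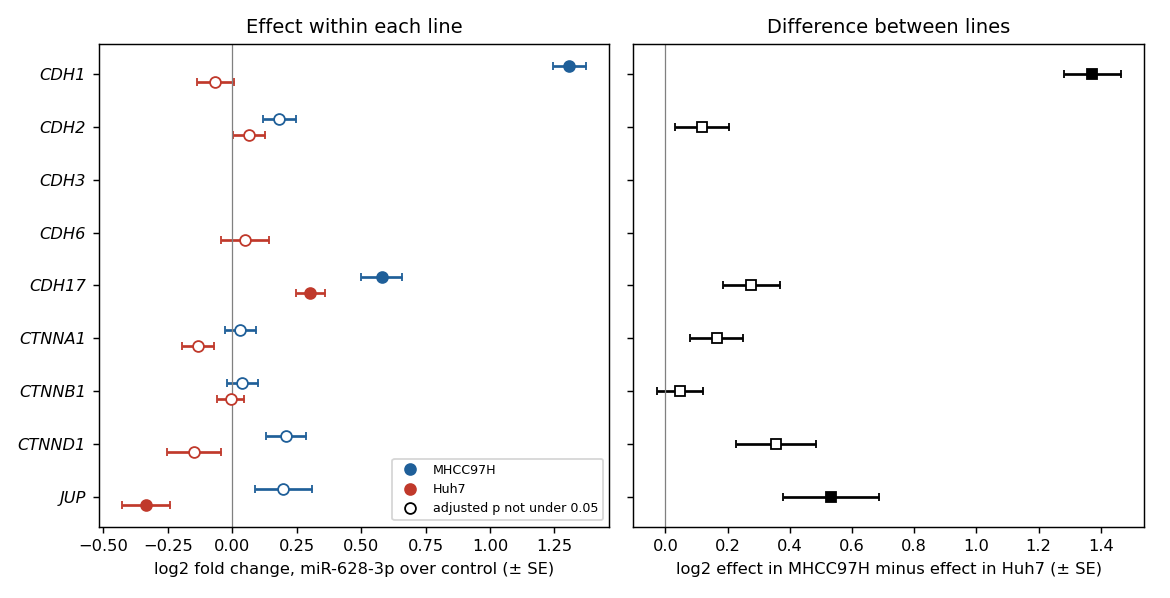
Left, log2 fold change of miR-628-3p over control (horizontal axis, bars ± 1 SE) in MHCC97H (blue) and Huh7 (red), filled where the limma adjusted p is under 0.05. Right, the MHCC97H effect less the Huh7 effect. CDH1 in MHCC97H stands at 1.31, away from its Huh7 value of -0.06, and CTNNB1 lies near 0 in both lines. CDH3 was not tested and CDH6 was tested in Huh7 only.

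CTNNB1 encodes β-catenin (ENSG00000168036; chromosome 3, 41194741 to 41260096, plus strand). It had 76.2, 69.4 and 76.4 FPKM in MHCC97H miR-628-3p libraries, against 72.0, 72.1 and 71.7 FPKM in MHCC97H control libraries. The microRNA libraries lay on both sides of the controls. CTNNB1 had a log2 fold change of 0.04 (SE 0.060, limma adjusted p = 0.753), with an interval of 2 SE on each side from -0.08 to 0.16.

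In Huh7 it had 202, 188 and 186 FPKM in miR-628-3p libraries, against 199, 190 and 190 FPKM in control libraries, the highest level of the 9 genes in that line. The ranges overlapped, with a log2 fold change of -0.01 (SE 0.052, limma adjusted p = 0.935) and an interval of 2 SE from -0.11 to 0.10. Median rescaling and quantile normalization turned this small value to 0.01 and 0.07. The mRNA says nothing of the protein, whose breakdown is the regulated step. ULK4, on the opposite strand, overlaps the gene's span at 0.859 to 1.60 FPKM.

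JUP encodes plakoglobin, the close relative of β-catenin that serves both adherens junctions and desmosomes (ENSG00000173801; chromosome 17, 41754604 to 41786931, minus strand). It had 5.48, 6.91 and 6.79 FPKM in Huh7 miR-628-3p libraries, against 9.04, 8.16 and 7.71 FPKM in Huh7 control libraries. The groups did not overlap. JUP had a log2 fold change of -0.33 (SE 0.093, limma adjusted p = 0.0422), the 607th lowest of 12508. Leaving out any 1 of the 6 libraries ended the call, with adjusted p between 0.0519 and 0.0977.

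In MHCC97H, JUP had 29.2, 33.8 and 25.5 FPKM in miR-628-3p libraries, against 23.2, 27.5 and 25.8 FPKM in control libraries. The ranges overlapped, and the log2 fold change of 0.20 (SE 0.110) did not pass, with a limma adjusted p of 0.342. The log2 fold change in MHCC97H exceeded that in Huh7 by 0.53 (SE 0.154, limma interaction, adjusted p = 0.0435). Of the 7 genes tested for such a difference, CDH1 and JUP passed, both with the higher effect in MHCC97H, where 12.9% of all 13171 genes tested passed, 7.43% with the higher and 5.43% with the lower effect there. The JUP difference passed in 2 of 12 fits that left out 1 library, with adjusted p between 0.00919 and 0.106.

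CTNND1 encodes p120-catenin, which holds cadherins at the membrane (ENSG00000198561; chromosome 11, 57753243 to 57819546, plus strand). It had 4.30, 3.99 and 4.51 FPKM in MHCC97H miR-628-3p libraries, against 3.77, 3.43 and 3.48 FPKM in MHCC97H control libraries. The groups did not overlap, but the log2 fold change of 0.21 (SE 0.078) did not pass, with a limma adjusted p of 0.170. In Huh7 it had 2.73, 2.86 and 3.78 FPKM in miR-628-3p libraries, against 3.77, 3.51 and 3.35 FPKM in control libraries. These overlapped, with a log2 fold change of -0.15 (SE 0.103, limma adjusted p = 0.301). The difference between the lines was 0.36 (SE 0.128, limma adjusted p = 0.0820).

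The level of CTNND1 is uncertain. A protein-coding row of the table without a symbol (ENSG00000288534, chromosome 11, 57712582 to 57818431) spans most of the gene on the same strand, at 0 to 0.0862 FPKM. No source used here tells how reads that fit both were assigned.

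CTNNA1 encodes αE-catenin, the link to actin (ENSG00000044115; chromosome 5, 138610967 to 138935034, plus strand). It had 102, 107 and 101 FPKM in MHCC97H miR-628-3p libraries, against 103, 104 and 95.6 FPKM in MHCC97H control libraries. The ranges overlapped, with a log2 fold change of 0.03 (SE 0.061, limma adjusted p = 0.804). In Huh7 it had 69.1, 75.5 and 80.6 FPKM in miR-628-3p libraries, against 83.3, 80.1 and 83.4 FPKM in control libraries. The lowest values belonged to the microRNA group, but the ranges touched, and the log2 fold change of -0.13 (SE 0.062) did not pass, with a limma adjusted p of 0.143. CTNNA1, whose 3′ UTR holds the match to bases 2 to 7 followed by an A, passed in neither line.

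The cadherin mRNA was made up differently in each line. In MHCC97H the shares of CDH1, CDH2 and CDH17 did not overlap between the microRNA and control libraries. In Huh7 the shares of CDH1 and CDH17 did not overlap either, while those of CDH2 did. CDH17 made 69.0% ± 1.15 of the summed FPKM of the 5 cadherins in MHCC97H miR-628-3p libraries and 65.5% ± 0.594 in MHCC97H control libraries. In Huh7 it made 10.1% ± 0.876 with the microRNA and 8.13% ± 0.317 in control libraries. CDH1 made 5.51% ± 0.492 in MHCC97H miR-628-3p libraries and 2.67% ± 0.0519 in MHCC97H control libraries. In Huh7 the CDH1 share was lower with the microRNA, at 30.5% ± 1.06 against 33.1% ± 1.14 in control libraries. CDH2 led in Huh7, with 58.0% ± 0.421 in miR-628-3p and 57.3% ± 1.48 in control libraries. In MHCC97H it made 25.5% ± 0.714 with the microRNA and 31.8% ± 0.562 in control libraries (SD, n = 3 each throughout).

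The summed cadherin level was 172 ± 14.1 FPKM in MHCC97H miR-628-3p libraries and 121 ± 0.393 FPKM in MHCC97H control libraries. It was 67.5 ± 4.21 FPKM in Huh7 miR-628-3p libraries and 65.1 ± 1.86 FPKM in Huh7 control libraries. The MHCC97H groups did not overlap, and most of the difference was CDH17. Of CDH1 and CDH2 together, CDH1 was 17.8% ± 0.990 in MHCC97H miR-628-3p libraries and 7.74% ± 0.146 in MHCC97H control libraries. The same share was 34.4% ± 0.922 in Huh7 miR-628-3p libraries and 36.6% ± 1.40 in Huh7 control libraries. These groups in MHCC97H did not overlap, while in Huh7 the microRNA range of 33.4 to 35.2% lay just under the control range of 35.3 to 38.1%. N-cadherin mRNA remained the larger of the pair in every library. These shares are descriptions, without a test.

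**Figure D3:**
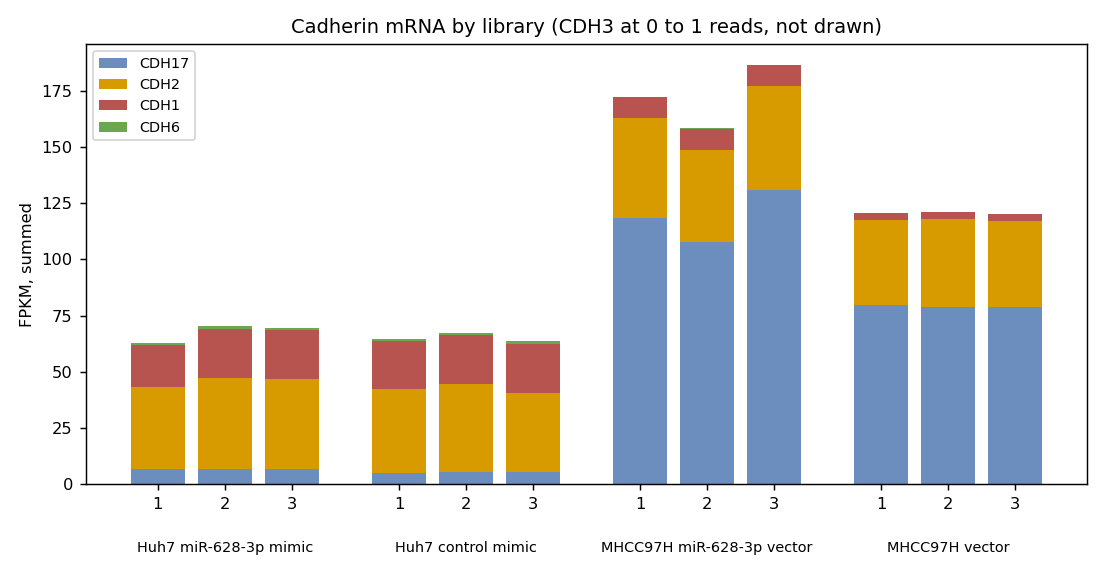
Stacked FPKM of CDH17, CDH2, CDH1 and CDH6 (vertical axis) in each of the 12 libraries (horizontal axis, replicate number within its group). MHCC97H bars are mostly CDH17 and are taller with miR-628-3p, at 158 to 186 FPKM, than with the control vector, at 120 to 121 FPKM. Huh7 bars are mostly CDH2 and stand at 62.7 to 70.3 FPKM with the miR-628-3p mimic and 63.5 to 67.2 FPKM with the control mimic.

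Without added microRNA, CDH1, CDH17, CTNNA1, CTNNB1 and JUP differed between the lines, and CDH2 and CTNND1 did not pass. In the contrast of MHCC97H control minus Huh7 control libraries, 5 of 7 genes tested passed, 3 higher and 2 lower in MHCC97H. Of all 13171 genes tested, 82.0% passed, 41.1% higher and 40.9% lower. The same 5 genes had groups that did not overlap, as 85.6% of all genes tested did. CDH17 was 14.9-fold higher in MHCC97H, at 79.1 ± 0.601 against 5.29 ± 0.164 FPKM in Huh7 (log2 3.67, SE 0.065, limma adjusted p = 5.64e-14). JUP was 3.07-fold higher in MHCC97H, at 25.5 ± 2.17 against 8.30 ± 0.676 FPKM in Huh7 (log2 1.51, SE 0.109, limma adjusted p = 4.48e-08). CTNNA1 was 1.23-fold higher in MHCC97H, at 101 ± 4.68 against 82.3 ± 1.91 FPKM in Huh7 (log2 0.29, SE 0.060, limma adjusted p = 0.000688).

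CDH1 was lower in MHCC97H, at 3.22 ± 0.0731 against 21.5 ± 0.233 FPKM in Huh7 (log2 -2.42, SE 0.064, limma adjusted p = 2.70e-12). CTNNB1 was lower in MHCC97H too, at 71.9 ± 0.182 against 193 ± 5.06 FPKM in Huh7 (log2 -1.41, SE 0.053, limma adjusted p = 6.63e-11). CDH2 averaged 38.4 ± 0.754 FPKM in MHCC97H and 37.3 ± 1.97 FPKM in Huh7, and its log2 difference of 0.04 (SE 0.061) did not pass, with a limma adjusted p of 0.550. CTNND1 averaged 3.56 ± 0.186 FPKM in MHCC97H and 3.55 ± 0.214 FPKM in Huh7 (limma adjusted p = 0.960). CDH6, not tested in this contrast, had 1 to 5 reads per MHCC97H control library and 132 to 165 reads per Huh7 control library. Line, delivery and handling cannot be told apart in this contrast.

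The 2 catenins that compete for the same site on the cadherin tail stood in another ratio in each line. CTNNB1 was 2.55 ± 0.471 times JUP in MHCC97H miR-628-3p libraries and 2.84 ± 0.248 times in MHCC97H control libraries. In Huh7 the ratio was 30.5 ± 5.52 with the microRNA and 23.3 ± 1.34 in control libraries. The Huh7 groups did not overlap, at 27.3 to 36.9 with the microRNA and 22.0 to 24.7 in control libraries, and there JUP passed the test and CTNNB1 did not. In MHCC97H control libraries CTNNA1 had the highest mean of the 4 catenins and CTNNB1 the next, while in Huh7 control libraries CTNNB1 led and CTNNA1 followed. CTNND1 came last of the 4 in all groups, though its level is uncertain, as said above.

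In Huh7, fold changes followed base composition across all genes. Spearman's rho between log2 fold change and the GC content of the longest transcript was -0.720 over 12452 genes in Huh7 and 0.172 over 12630 genes in MHCC97H, where the genes of a comparison share the same 6 libraries. JUP, the gene of the 9 that fell in Huh7, has the highest GC content of the 9, 61.5%, against a median of 47.1% over the genes tested there. CDH17, which rose, has 43.4%, and CDH1 has 48.6%. CTNNB1 has 43.5%, near CDH17, and its Huh7 log2 fold change was -0.01. CDH6 has the lowest GC content of the 9, 39.9%, and its Huh7 log2 fold change was 0.05.

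Each library was then corrected, blind to group, for GC content and exon length. The Huh7 log2 fold change of JUP was -0.13 (SE 0.068, limma adjusted p = 0.302), against -0.33 (SE 0.093) without the correction. That of CDH17 was 0.25 (SE 0.046, limma adjusted p = 0.103), against 0.30 (SE 0.057) without it, so its SE shrank along with its effect. Neither passed, and 1 gene of all 12452 did. In MHCC97H the same correction left CDH1 at 1.27 (adjusted p = 1.98e-05) and CDH17 at 0.61 (adjusted p = 0.000159), and CDH2 then passed at 0.19 (adjusted p = 0.0172). The difference between lines passed for CDH1 at 1.30 (adjusted p = 9.34e-07), CDH17 at 0.36 (adjusted p = 0.00131), JUP at 0.33 (adjusted p = 0.0383) and CTNND1 at 0.33 (adjusted p = 0.0484).

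**Figure D4:**
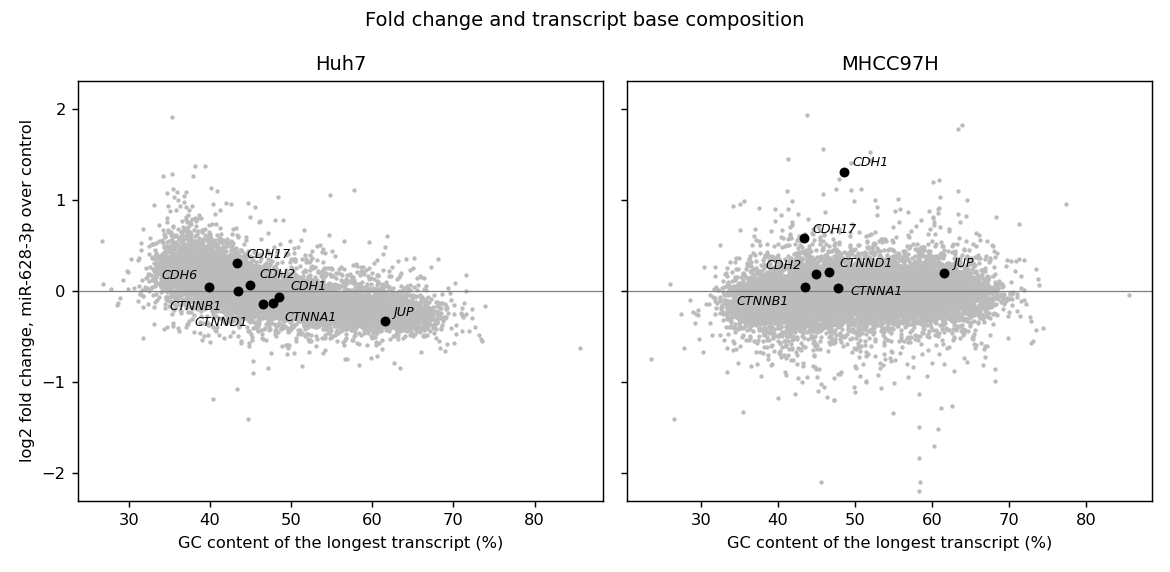
Log2 fold change of miR-628-3p over control (vertical axis) against GC content of the longest transcript (horizontal axis, %) for each gene tested (grey) and the genes of the junction (black), in Huh7 and MHCC97H. In Huh7 the cloud slopes down with GC content (rho -0.720) and CDH17 and JUP lie within it. In MHCC97H the slope is small (rho 0.172) and CDH1 lies above the cloud.

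Other genes of the cadherin-catenin system were counted from lists of known roles. The counts stand beside the shares of all genes tested given above, 6.75% higher and 14.4% lower in Huh7 and 2.32% higher and 3.05% lower in MHCC97H. Of 17 further cadherins, 1 reached the expression limit in each line and 0 passed in limma. It was CDH19 in Huh7 (log2 0.26, unadjusted p = 0.0196, limma adjusted p = 0.0673), which passed in limma voom, and CDH24 in MHCC97H. CDH24 averaged 2.40 ± 0.0970 FPKM in MHCC97H miR-628-3p libraries and 1.83 ± 0.0329 FPKM in MHCC97H control libraries (unadjusted p = 0.00956, limma adjusted p = 0.0958). The desmosome list of 13 genes had 6 tested in each line. In Huh7, where 6.75% of all genes tested rose, 3 of the 6 rose, the desmosomal cadherins DSG2 (11.2 ± 0.313 FPKM with the microRNA and 9.59 ± 0.306 FPKM in control) and DSC2 (1.89 ± 0.126 FPKM with it and 1.41 ± 0.0633 FPKM in control), and the plaque protein DSP (15.4 ± 1.48 FPKM with it and 12.7 ± 0.605 FPKM in control). In MHCC97H 0 passed in limma, 2 had an unadjusted p under 0.05 and 1 passed in limma voom on reads. The median log2 fold change of the list was 0.17 in MHCC97H and 0.16 in Huh7.

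Of 18 catenin relatives and junction linkers, 12 were tested in MHCC97H and 1 rose, near the 5.37% of all genes tested that passed there. It was NECTIN1, an immunoglobulin-like adhesion receptor of the same junction, at 5.33 ± 0.415 FPKM in MHCC97H miR-628-3p and 3.11 ± 0.270 FPKM in MHCC97H control libraries (log2 0.63, SE 0.087, limma adjusted p = 0.00943). In Huh7, 15 were tested, 3 rose and 1 fell, near the 21.1% of all genes tested that passed there. VEZT, LIMA1 and TJP1, which tie junctions to the cytoskeleton, rose by log2 0.35, 0.23 and 0.27. NECTIN2 fell by 0.34 on the log2 scale, to 25.6 ± 0.778 FPKM in Huh7 miR-628-3p libraries, against 32.5 ± 1.78 FPKM in Huh7 control libraries.

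Of 12 known repressors of CDH1 transcription, 4 were tested in each line. In MHCC97H, the line in which CDH1 rose, 0 passed in limma or in limma voom, and 1, SNAI1, had an unadjusted p under 0.05. There the median log2 fold change of the list was 0.16. ZEB1 averaged 7.25 ± 2.66 FPKM in MHCC97H miR-628-3p and 7.10 ± 0.589 FPKM in MHCC97H control libraries. SNAI1 averaged 4.28 ± 0.568 FPKM with the microRNA and 3.17 ± 0.578 FPKM in control, and SNAI2 1.93 ± 0.0871 FPKM with it and 1.51 ± 0.248 FPKM in control. The SNAI1 mean was the higher one with the microRNA (log2 0.34, limma adjusted p = 0.170). Whether these repressors have a part in the CDH1 values was not tested. In Huh7, TCF4, the E-box factor also called E2-2, rose by log2 0.27, and TCF3, also called E2A, fell by 0.25. SNAI2 had 0 reads in all Huh7 libraries, which allows up to 3 per library.

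Of 13 epithelial transcription and splicing factors, 8 were tested in each line. CDX2, an intestinal homeobox factor known to activate CDH17, rose in MHCC97H (log2 0.43, SE 0.096, limma adjusted p = 0.0473). It averaged 2.84 ± 0.282 FPKM in miR-628-3p libraries there, against 1.86 ± 0.205 FPKM in control libraries. In Huh7, where CDH17 also rose, CDX2 had a log2 fold change of -0.11 (limma adjusted p = 0.357). Between the control lines its log2 difference was 0.02 (limma adjusted p = 0.819). Whether CDX2 has a part in the CDH17 values was not tested. HNF4A, a hepatocyte factor, fell in Huh7, to 17.0 ± 1.60 FPKM in miR-628-3p libraries, against 20.8 ± 0.891 FPKM in control libraries (log2 -0.28, SE 0.074, limma adjusted p = 0.0379). ESRP1 was at 0 in every library, and GRHL2 stayed under 0.06 FPKM.

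Of 13 genes that process, cleave or recycle cadherins, all were tested in both lines. In MHCC97H 0 passed in limma or limma voom, and 2 had an unadjusted p under 0.05. In Huh7, 1 rose and 2 fell, near the 21.1% of all genes tested that passed there. The sheddase ADAM10 rose (23.6 ± 1.02 FPKM with the microRNA and 18.5 ± 1.83 FPKM in control). The γ-secretase subunit APH1A fell (32.9 ± 1.40 FPKM with it and 40.7 ± 0.981 FPKM in control), as did the proprotein convertase FURIN (92.7 ± 9.04 FPKM with it and 115 ± 4.69 FPKM in control).

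The β-catenin pathway beside CTNNB1 was counted the same way. All 11 genes of β-catenin degradation were tested in both lines. In Huh7, 1 rose and 1 fell, near the 21.1% of all genes tested that passed there. The scaffold APC rose (4.70 ± 0.588 FPKM with the microRNA and 2.89 ± 0.862 FPKM in control). The kinase GSK3A fell (4.63 ± 0.435 FPKM with it and 5.94 ± 0.363 FPKM in control). In MHCC97H 0 passed in limma or limma voom, and 2 had an unadjusted p under 0.05. Of 10 nuclear partners, 8 were tested in MHCC97H, and the coactivator BCL9 rose to 7.16 ± 0.225 FPKM in miR-628-3p libraries, against 4.98 ± 0.0449 FPKM in control libraries (log2 0.45, SE 0.065, limma adjusted p = 0.0112). In Huh7, 7 were tested and 3 fell, the coactivator PYGO2 and the β-catenin inhibitors CTNNBIP1 and CBY1, by 0.28, 0.35 and 0.21 on the log2 scale. The difference between lines passed for 4 of 8 nuclear partners and for 4 of 9 target genes, each with the higher effect in MHCC97H. Of all genes tested, 7.43% passed in that direction. These differences are given without the GC and length correction, and Huh7 fold changes followed base composition across all genes.

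Among 17 β-catenin target genes, 8 were tested in MHCC97H and 1, the transcription factor TBX3, rose, to 3.05 ± 0.273 FPKM in miR-628-3p libraries, against 2.03 ± 0.151 FPKM in control libraries (log2 0.42, SE 0.088, limma adjusted p = 0.0387). In Huh7, 9 were tested and 0 passed in limma, with 2 at an unadjusted p under 0.05 and 1 passing in limma voom. In MHCC97H 4 of the 8 had an unadjusted p under 0.05, and besides TBX3 they lay on both sides of 0, with log2 fold changes of 0.26 for CCND1, 0.22 for AXIN2 and -0.22 for MYC (limma adjusted p = 0.059, 0.123 and 0.0848). None of the Huh7 calls named from these lists passed after the GC and length correction, with adjusted p from 0.103 for DSP to 0.920 for DSC2. The MHCC97H calls of NECTIN1, CDX2, BCL9 and TBX3 all passed it, with adjusted p from 0.000909 to 0.0185.

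Some markers of other cell types moved as well. In MHCC97H the summed FPKM of 7 endothelial markers was 9.03 to 9.54 in miR-628-3p libraries and 5.86 to 6.67 in control libraries. PECAM1 rose there, to 7.35 ± 0.263 FPKM against 4.34 ± 0.235 FPKM in control libraries (log2 0.65, limma adjusted p = 0.00390), and made most of that difference. KDR, the other endothelial marker tested there, had a log2 fold change of 0.03 (limma adjusted p = 0.873), and CLDN5 and EMCN were at 0. The hepatocyte marker ALB rose beside CDH1 in MHCC97H (log2 1.45, limma adjusted p = 0.000185), and FGB fell (log2 -0.64, adjusted p = 0.00634). Of 7 hepatocyte markers tested there, 1 rose and 1 fell, where 5.37% of all genes tested passed. In Huh7, 9 were tested, APOB and FGB rose (log2 0.60 and 0.22, limma adjusted p = 0.0326 and 0.0431), and APOA1 and HNF4A fell (log2 -0.35 and -0.28, limma adjusted p = 0.0297 and 0.0379). There 21.1% of all genes tested passed.

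In Huh7 the summed level of 8 fibroblast markers was 62.1 to 67.1 FPKM with the microRNA and 44.6 to 56.5 FPKM in control libraries. LUM made most of it, at 56.9 ± 3.17 FPKM in miR-628-3p and 44.6 ± 6.56 FPKM in control libraries. LUM passed (log2 0.35, limma adjusted p = 0.0459), but not after the GC and length correction (log2 0.15, limma adjusted p = 0.160). COL1A2, the other fibroblast marker tested in Huh7, had a log2 fold change of -0.07 (limma adjusted p = 0.611). The 8 leukocyte markers summed to at most 4.00 FPKM in any library. The part of these shifts in the cadherin values was not tested.

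Genes with the most similar pattern over the 12 libraries were found by the root mean square difference in log2(FPKM + 1), each gene centred on its own mean. For CDH1 they were LOX (0.21), CYP2J2 (0.27) and PDZK1 (0.28). LOX averaged 5.00 FPKM in MHCC97H miR-628-3p and 2.23 FPKM in MHCC97H control libraries, with 12.3 FPKM in Huh7 miR-628-3p and 11.5 FPKM in Huh7 control libraries. For CDH17 they were SLC28A2 (0.12), UPK1B (0.15) and ACSS1 (0.16), each under 0.06 FPKM in both Huh7 groups and between 10.8 and 16.2 FPKM in the MHCC97H groups. For CTNNB1 they were ANKRD46 (0.02), SF3A3 (0.05) and PAIP2B (0.06).

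For JUP they were TTYH3 (0.06), EFHD2 (0.06) and ORMDL3 (0.08), and for CDH6 FOXO1, WDCP and FBXO9 (each 0.06). The group means of CDH2, CDH3, CTNNA1 and CTNND1 spanned under 0.5 log2 units, and no similar genes were sought for them. The likeness rests mostly on the difference between the lines. It also rests on log2(FPKM + 1), where values near 0 differ little, so genes alike on that scale can differ in fold. In Huh7 control libraries SLC28A2 averaged 0.0219 FPKM, where CDH17 averaged 5.29 FPKM.

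The calls of CDH1 and CDH17 in MHCC97H held in all 11 other settings that used every library, and those of CDH17 and JUP in Huh7 held in 8 and 4 of 11.

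**Figure D5:**
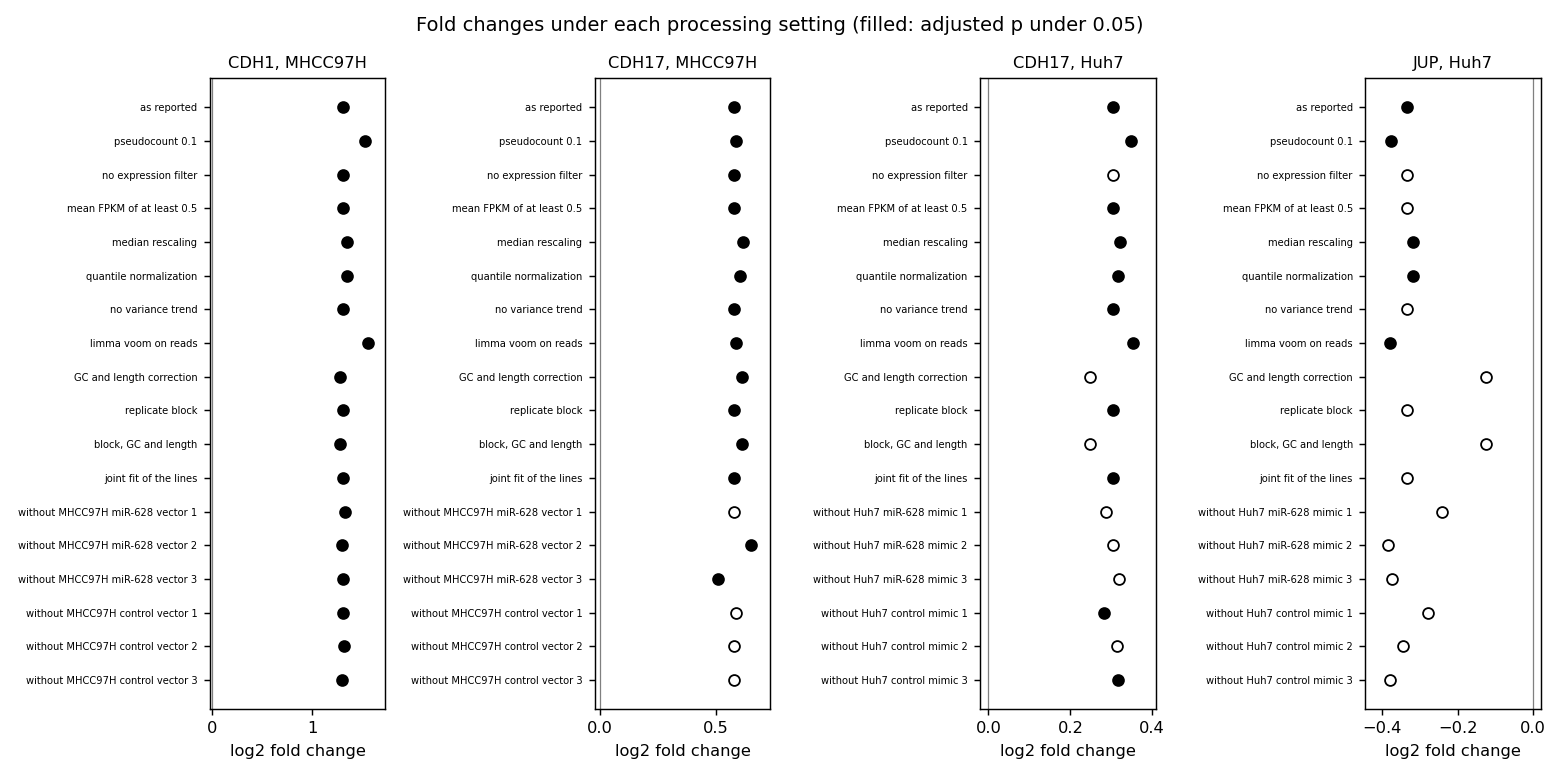
Log2 fold change (horizontal axis) under each processing setting and without each library (rows), filled where the limma adjusted p is under 0.05. CDH1 in MHCC97H is filled in every row, CDH17 in MHCC97H is open without the first miR-628-3p library or any control library, and CDH17 in Huh7 is open in 3 of the 11 other settings. JUP in Huh7 is filled in 4 of those 11, open whichever library is left out, and moves to -0.13 after the GC and length correction.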

How the data were processed

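The deposited table holds FPKM values for 12 libraries; the submitters' processing notes name HISAT2, HISAT and HTSeq with GRCh38 and hg38, and tool versions are not given in the sources used here. Per the labels' protocols, poly-A RNA was sequenced. FPKM times exon length gave whole reads for 100% of values within 0.01 reads.

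Genes with a mean of at least 1 FPKM entered limma 3.58.1 (R 4.3.3) on log2(FPKM + 1), with eBayes and a mean-variance trend, per line. Difference and control-line contrasts used 12 libraries. Calls are Benjamini-Hochberg adjusted p under 0.05. Adding 1 shrinks folds of weak genes. ± is SD. Tests were checked on simulated data in which genes varied independently and no trend with GC content was set. That check cannot speak to such a trend or to shifts shared by many genes. Alternatives changed the pseudocount, filter, scaling, variance model, reads (limma voom), GC and length, replicate block and libraries.

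The genes and lists were chosen with earlier results of these data known. All 9 genes are named, with up to 4 called genes of smallest p per list and line, and, for a gene whose group means span at least 0.5, its 3 most similar genes. CDH19, CDH24, ZEB1, SNAI1, SNAI2, ESRP1, GRHL2, AXIN2, CCND1, MYC and KDR were added after seeing values. Python 3.11.15, pandas 2.3.3 and matplotlib 3.10.9 were used.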

Additional observations from a re-analysis of the deposited data

Results flagged for a closer look

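The effect of miR-628-3p on CDH1 differed between the lines by 1.37 on the log2 scale, MHCC97H minus Huh7. CDH1 rose in all 3 MHCC97H miR-628-3p libraries against their control, and the Huh7 groups overlapped. The difference passed in all 10 other settings and in all 12 fits that left out 1 library. Delivery differed along with the line, so the 2 cannot be told apart here or for JUP below.

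The effect on JUP differed between the lines by 0.532 on the log2 scale, MHCC97H minus Huh7, with a fall in Huh7 and overlapping groups in MHCC97H. It passed in 7 of 10 other settings and in 2 of 12 fits without 1 library, and after the GC and length correction it was 0.33.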

How the results depend on the processing

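Of the cadherin and catenin values under the alternatives, 454 kept direction and side of the threshold, 37 lost a call, 9 gained one and 16 changed sign. In Huh7, 2 genes passed as reported, 0 without an expression filter or with the GC and length correction, with or without the replicate block, and 1 with a limit of 0.5 FPKM, no variance trend, the replicate block alone or the joint fit. Leaving out 1 library gave 0 to 1 in Huh7 and 1 to 2 in MHCC97H, where other settings gave 2 to 3. For the difference between lines, 1 passed without a filter or with the replicate block, 4 with the GC and length correction, and 1 to 3 without 1 library. Between control lines 5 to 6 passed.

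Sign changes were confined to values that did not pass. In Huh7, CDH6 was -0.15 with the GC and length correction, with or without the block. CTNNB1 was 0.0105 with median rescaling, 0.0728 with quantile normalization and -0.0434 to 0.0169 without 1 library, and CDH1 was -0.113 to 0.0122 without 1 library. CTNNA1 in MHCC97H was -0.0068 to 0.056 without 1 library. Between control lines, CDH2 was -0.0260 with median rescaling, and CTNND1 was -0.0615 with it, -0.10 with quantile normalization, -0.10 with the GC and length correction, also with the block, and -0.0283 to 0.0409 without 1 library. The cause was not tested.

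Over all genes, 2642 passed in Huh7, against 7 without a filter, 1694 without the variance trend, 1187 with the replicate block, 561 in the joint fit, 1 with the GC and length correction, also with the block, and 0 to 1661 without 1 library. In MHCC97H 680 passed, against 326 without a filter, 1981 with the GC and length correction, 1651 with it and the block, 1584 in the joint fit and 142 to 1604 without 1 library. For the difference 1694 passed, against 967 without a filter, 1106 with the block and 637 to 4670 without 1 library.

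No clear pairing by replicate number was seen, and 3 libraries a group cannot exclude it. Deviations of same-numbered libraries correlated at -0.015, -0.075 and 0.037 in Huh7 and at -0.088, 0.305 and 0.135 in MHCC97H. Those of different-numbered libraries correlated at -0.145 to 0.171 in Huh7 and at -0.343 to 0.250 in MHCC97H.

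The 3 libraries a group limit every test, and CDH3 and, in MHCC97H, CDH6 are limited by depth. No source used here tells whether reads were counted by strand, so opposite-strand overlaps remain uncertain. Added microRNA was not measured in these libraries.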
